A study of Homo sapiens with 39 samples.

Results

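Clone 4.2 is a clone of the human melanoma line A375 in which the region called R4, a regulatory region near SOX10, was deleted. It was compared with unedited A375 cells, the wild type (WT). The comparison used 3 libraries of clone 4.2 and 4 libraries of WT, 7 of the 39 libraries of the series, and these were chosen by the sample titles and column names without regard to any measured value. A375 is an established line from a skin melanoma. The labels give the genotype of clone 4.2 as the R4 deletion and name no drug, no time point and no other edited gene for either group. They do not state how many copies of R4 were lost, nor whether the WT cells also passed through a single-cell stage. The other A375 clones were used to estimate the spread and for levels set side by side: R4 clone 4.1 with 4 libraries, and clones 1.1 and 1.2, in which another region called R1 was deleted, with 3 and 4 libraries. Clone 4.2 is 1 clone, so every test below compares that clone with WT cells, not the deletion with its absence. The labels do not say that the libraries of a group came from separate cultures, and the p-values then measure only the spread between these libraries, which may be technical.

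SOX10 is a transcription factor of the neural crest, the embryonic tissue that gives rise to melanocytes and to the glia of peripheral nerves. In these cells SOX10 acts with MITF on pigment genes and on lineage receptors such as ERBB3, and enhancers spread over a large stretch around the gene set its level. The question of the study, as its title and design text give it, is how RNA levels change when such an enhancer region is deleted.

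Levels are in TPM, the abundance of transcripts relative to all transcripts of a library and corrected for their length. The read depth is unknown and a gene without signal is described as listed at 0. The 7 libraries held 14365 to 15158 genes at a TPM of at least 1. The share of TPM from the mitochondrial genome was 1.56% to 2.78% in clone 4.2 and 1.21% to 4.92% in WT. WT library 2 stood apart from the other WT libraries. Its summed level of 30 S-phase genes was 791.9 TPM against 1832 to 3603 TPM in the other 3, and its summed level of hypoxia and glycolysis genes was 40180 TPM against 17330 to 23380 TPM. Clone 4.2 library 1 also differed from libraries 2 and 3 of the clone. Its S-phase sum was 2079 TPM against 4402 and 3541 TPM, and its sum of interferon-stimulated genes 1871 TPM against 1055 and 987 TPM. Its hypoxia and glycolysis sum was 19820 TPM against 18600 and 17910 TPM. Below, list medians with a library left out are given for WT library 2 only. Of the 9 melanoma markers, SOX10, ERBB3, CSPG4, PRAME, S100B and MITF were above 7 TPM in all 7 libraries. The pigment markers of melanocytes were low: TYR, the key enzyme of melanin synthesis, was listed at 0 in every library, and MLANA and PMEL reached at most 0.640 and 1.62 TPM. Markers of other cell types were mixed. Of the 9 leukocyte markers, PTPRC reached at most 0.071 TPM and MS4A1 was listed at 0, but CD68 was at 22 to 52.7 TPM in clone 4.2 and 20.6 to 120 TPM in WT, and LYZ at 5.8 to 12.3 TPM and 1.62 to 7.59 TPM. Of the 9 keratinocyte markers, TP63 and CDH1 reached at most 0.051 and 0.093 TPM, while KRT10 was at 68.4 to 82.6 TPM and 64.7 to 87.9 TPM, and KRT14 at 11.4 to 30.4 TPM and 0.911 to 26.4 TPM. Summed levels in clone 4.2 and WT were 32.1 to 65.4 and 27.1 to 121.5 TPM for the leukocyte list and 80.5 to 113 and 66.2 to 115 TPM for the keratinocyte list. They were 6.55 to 11.1 and 7.22 to 15.9 TPM for the 9 fibroblast markers, of which COL3A1 reached at most 0.034 TPM and DPT was listed at 0. The 7 endothelial markers summed to 2.5 to 3.23 TPM in the clone and 1.62 to 2.32 TPM in WT. Of these, KDR was at 1.51 to 2.45 TPM and 0.969 to 1.49 TPM, and CDH5 reached at most 0.091 TPM. The part of these markers in the results below was not tested.

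SOX10 itself (ENSG00000100146, chromosome 22, 37970686 to 37987422, minus strand, GRCh38) was not called. Its level was 647, 541 and 488 TPM in the 3 libraries of clone 4.2 and 702, 706, 691 and 630 TPM in WT. Clone 4.2 library 1 lay above WT library 4, so the groups overlapped, while the other 2 libraries of the clone lay below all 4 WT libraries. The log2 difference was -0.30 (SE 0.16, limma adjusted p 0.658 over all tested genes). The transcript table listed 7 SOX10 transcripts, of which 6 were above 0 in at least 1 of the 7 libraries. SOX10-202 held 67.0% of the SOX10 level in clone 4.2 and 69.1% in WT, SOX10-204 held 22% and 19.5%, and SOX10-203 held 8.97% and 9.10%, as shares of the group means with no test. Around SOX10, 22 genes of a list of 26 were tested, none was called, and 1 had an unadjusted p under 0.05. The median log2 difference of these 22 genes was 0.0026, against 0.06 over all tested genes. LGALS1, which encodes a galectin, had a mean of 1629 ± 340 TPM over the clone's libraries (SD, n = 3) against 1545 ± 145 TPM over those of WT (SD, n = 4). POLR2F, a shared subunit of the RNA polymerases, had 369.5 ± 46.9 TPM (SD, n = 3) against 314 ± 113 TPM (SD, n = 4). EIF3L, NOL12, CDC42EP1 and KDELR3, also near SOX10, had log2 differences of -0.19, 0.52, -0.60 and -0.45, and their groups overlapped. In bulk RNA, fewer cells that express a gene and less of its RNA per cell cannot be told apart, here and in all results below.

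Over all genes, 79 of the 16692 tested, or 0.473%, were called at an adjusted p under 0.05 and a log2 difference of at least 1 in size. Of these, 18 genes (0.108% of those tested) were higher in clone 4.2 and 61 (0.365%) were lower. Without the limit on size, 93 genes had an adjusted p under 0.05. Of all tested genes, 9634 had a log2 difference above 0 and 7048 below 0. Counts of list members given below stand against these numbers and against the 0.473% called. The 3 libraries of the clone lay outside the range of the 4 WT libraries for all 79 genes; across all tested genes they lay above it for 3.49% and below it for 3.03%. Most of the genes that fell were weakly expressed: 45 of the 61 had a mean level under 10 TPM in WT, 43 had a mean under 1 TPM in clone 4.2, and 5 were listed at 0 in all 3 libraries of the clone. Those 5 are SSX2, ATP10A, SPANXB1, CSMD1 and LINC02531. When each of the 7 libraries was left out in turn, between 53 and 92 genes were called. Leaving out clone 4.2 library 3 gave the 53, and 36 of the 61 falls and 12 of the 18 rises were called in all 7 of these fits. With WT library 2 left out, 68 genes were called, and 64 of them were among the 79. An unadjusted p under 0.05 (limma) was reached by 1297 genes with all libraries. That number was 722 without clone 4.2 library 3, 770 without WT library 2, 2054 without clone 4.2 library 1 and 2678 without WT library 4.

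**Figure D1:**
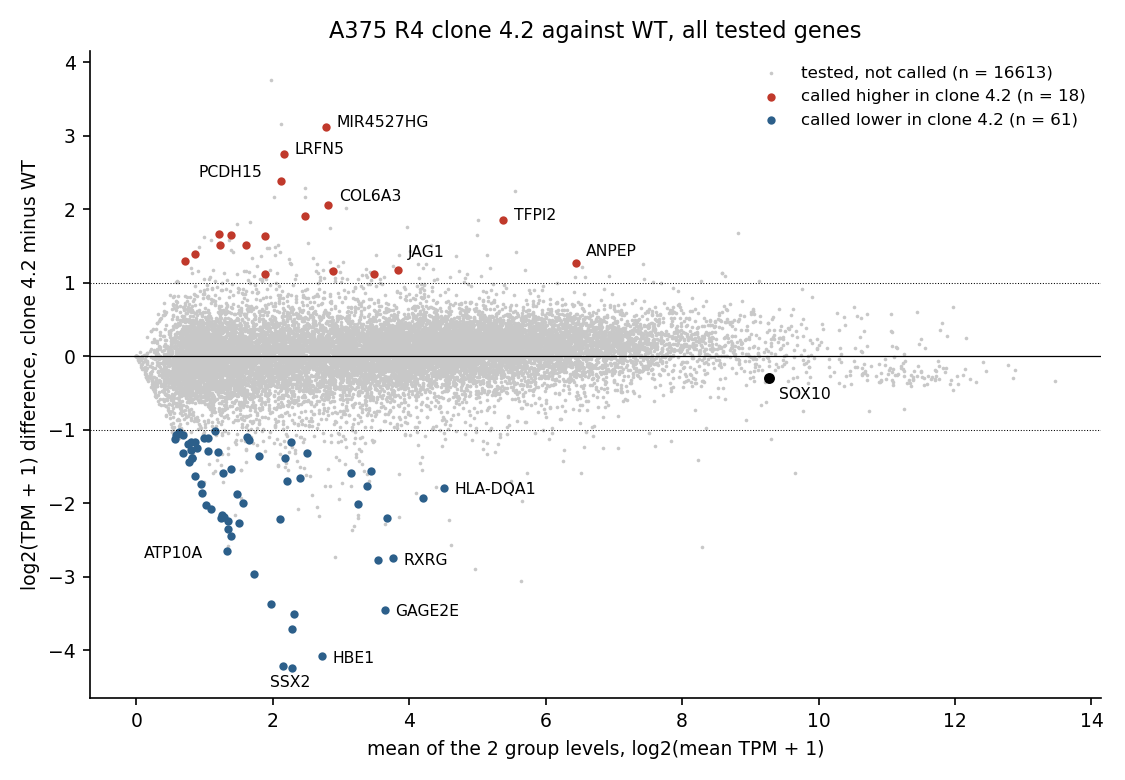
Log2(TPM + 1) difference between clone 4.2 and WT (y axis) against the mean level of the 2 groups on the log2(TPM + 1) scale (x axis) for the 16692 tested genes, with red points for the 18 genes called higher, blue points for the 61 called lower and dotted lines at a log2 difference of 1 in size. Most blue points lie at low mean levels, and SOX10 (black) lies at a high level with a log2 difference of -0.30.

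The largest group of falls was that of the cancer-testis genes. These genes are normally expressed in germ cells of the testis, are silenced by promoter methylation in most adult tissues, and are switched on in many melanomas. Most of them lie in copied clusters on the X chromosome, and 20 of the 61 genes that fell are X-linked, against 576 X-linked genes among the 16692 tested. The 20 count near copies as separate genes: members of the GAGE family, SSX2 and SSX2B, and NXF2 and NXF2B. The GAGE family, which encodes small proteins of germ cells and tumours, had 11 tested members, of which 7 fell and none rose. That is 63.6% called, against 0.473% over all tested genes. The median log2 difference of the 11 was -2.16, against 0.06 over all tested genes, and without WT library 2 it was -2.28 with 8 members lower. The promoters of 3 genes of the group and of LRFN5, the protein-coding gene that rose most, are shown because the first of them is shared by much of the GAGE family and because they differ in CG content. They are the 300 bases from RefSeq (GRCh38.p14) that run from 250 bases before to 50 bases after the start of each gene, 5′ to 3′ on the gene's strand, with every CG dinucleotide in capitals. GAGE12C is at chrX:49531927-49532226 on the plus strand, SSX2 at chrX:52707178-52707477 on the minus strand, SPANXB1 at chrX:141002344-141002643 on the plus strand and LRFN5 at chr14:41606626-41606925 on the plus strand.
GAGE12C: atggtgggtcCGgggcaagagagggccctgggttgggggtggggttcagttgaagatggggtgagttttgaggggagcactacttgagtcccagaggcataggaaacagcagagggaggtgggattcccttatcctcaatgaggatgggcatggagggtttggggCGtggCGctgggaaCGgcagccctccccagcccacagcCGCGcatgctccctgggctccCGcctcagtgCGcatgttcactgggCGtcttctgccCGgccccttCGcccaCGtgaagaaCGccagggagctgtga
SSX2: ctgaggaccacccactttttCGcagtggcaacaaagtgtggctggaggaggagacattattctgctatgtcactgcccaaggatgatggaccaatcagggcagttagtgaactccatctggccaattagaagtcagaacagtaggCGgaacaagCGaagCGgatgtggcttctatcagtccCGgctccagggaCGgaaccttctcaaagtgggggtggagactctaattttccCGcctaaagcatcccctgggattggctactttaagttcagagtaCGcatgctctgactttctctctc
SPANXB1: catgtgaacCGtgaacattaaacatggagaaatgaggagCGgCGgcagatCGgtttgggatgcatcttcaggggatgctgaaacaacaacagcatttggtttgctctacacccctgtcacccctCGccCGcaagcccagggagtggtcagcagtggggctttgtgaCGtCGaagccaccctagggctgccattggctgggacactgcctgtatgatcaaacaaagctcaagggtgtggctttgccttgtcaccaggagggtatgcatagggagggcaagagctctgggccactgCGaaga
LRFN5: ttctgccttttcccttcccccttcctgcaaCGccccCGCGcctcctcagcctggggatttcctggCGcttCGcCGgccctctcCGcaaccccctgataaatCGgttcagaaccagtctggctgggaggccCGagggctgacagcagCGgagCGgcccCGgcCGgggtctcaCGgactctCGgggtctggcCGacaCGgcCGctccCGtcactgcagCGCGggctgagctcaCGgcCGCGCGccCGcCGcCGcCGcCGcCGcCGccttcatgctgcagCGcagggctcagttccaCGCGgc

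The GAGE12C promoter holds 13 CG, a number that 51.7% of the 35116 promoters in the RefSeq table reach. It is identical in all 300 positions to the promoters of GAGE12D, GAGE12H, GAGE12J, GAGE2A, GAGE12E and GAGE12F, and it shares an unbroken run of 293 bases with that of GAGE1. The SSX2 promoter holds 8 CG and shares a run of 251 bases with that of SSX2B, and the SPANXB1 promoter holds 9. The LRFN5 promoter holds 35 CG, which 14.1% of promoters reach. Of the 79 called genes, 54 matched the RefSeq table. The median number of CG was 10.5 over the 42 of them that fell and 17 over the 12 that rose, against 14 over all promoters, and the copied GAGE promoters each count once per gene. These letters are a description, and no methylation was measured.

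Summed over the family, GAGE genes reached 14.7, 14.5 and 12.9 TPM in the libraries of clone 4.2 and 121, 111.5, 156 and 133 TPM in WT. All 3 sums of the clone lay below the lowest WT sum. GAGE12C was at 0.690, 0 and 0.328 TPM in clone 4.2 and at 19.4, 17.6, 20.6 and 9.46 TPM in WT, a log2 difference of -3.71 (SE 0.35, limma adjusted p 1.564e-05). GAGE1 was at 0.510, 0.0230 and 0.0870 TPM against 9.10, 8.39, 14.5 and 14.6 TPM, a difference of -3.37. Both were close to 0 in every library of the clone. GAGE2A kept a level of 7.96, 8.06 and 9 TPM in clone 4.2, below the 25.7 to 43.3 TPM of WT, and gave most of what remained of the family sum. GAGE2E, the most abundant member in WT, fell by 3.45 on the log2 scale, from 38.2 to 41 TPM in WT to 3.87, 2.93 and 1.67 TPM, and its call was lost without clone 4.2 library 2 or 3 (highest adjusted p 0.1004, with a log2 difference of -3.21 without library 3). GAGE12D, GAGE12J and GAGE12H fell by 2.97, 2.20 and 1.87, and that of GAGE12H was lost without clone 4.2 library 3 (adjusted p 0.0608). The 4 members that were not called, GAGE12G, GAGE12E, GAGE12F and GAGE13, had log2 differences of -2.16, -0.85, -0.85 and -0.44. The copies are nearly the same in sequence: every 50-base window of the GAGE12C, GAGE12D and GAGE2E transcripts (GENCODE 29) also occurs in the transcripts of another gene, and so do 85.2% of the windows of GAGE2A. How reads were divided among the copies is therefore uncertain, and the family sum rests less on that division than any member does. Of the 3134 windows over all annotated GAGE1 transcripts, 403 or 12.9% are shared. GAGE12C has 478 windows in all, so the low share of GAGE1 does not free it of this uncertainty.

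Outside the GAGE family, 47 genes of a list of 122 other cancer-testis genes were tested, of which 5 fell and none rose, with a median log2 difference of -0.01. These 5 are 10.6% of the 47, against 0.473% called over all tested genes. SSX2, a member of the SSX family of nuclear repressors (ENSG00000241476, chromosome X, 52696896 to 52707189, minus strand, GRCh38), was listed at 0 in all 3 libraries of clone 4.2 and was at 22, 11.4, 13.1 and 28.2 TPM in WT. Its log2 difference was -4.21 (SE 0.33, limma adjusted p 1.229e-06). Its mirror copy SSX2B had at most 0.122 TPM in the clone and 7.99 to 32.2 TPM in WT. Both copies were thus almost without signal, and they share all windows of SSX2, so they are best read as 1 measurement. SPANXB1, a sperm nuclear protein gene, was listed at 0 in the clone and was at 3.79, 3.03, 2.65 and 2.95 TPM in WT. MAGEA1, a MAGE family gene, was at 1.03, 1.73 and 1.85 TPM against 7.45, 4.46, 8.67 and 8.93 TPM. CTAG2, a relative of NY-ESO-1, was at 1.13, 0.925 and 1.29 TPM against 3.53, 3.91, 3.72 and 3.44 TPM. These 3 genes did not overlap between the groups, and their log2 differences were -2.03, -1.70 and -1.14. Other X-linked genes of germ cells outside the list also fell. They were NXF2 and its copy NXF2B, relatives of the mRNA export factor NXF1, by 2.08 and 1.74, and VCX3B by 1.59. The call of VCX3B was lost without clone 4.2 library 2 or 3 or WT library 3 (highest adjusted p 0.133, without clone 4.2 library 2).

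The most abundant cancer-testis genes were not called. MAGEA4 was at 732, 731 and 741 TPM in clone 4.2 and 671, 387, 810 and 705 TPM in WT, with a log2 difference of 0.24 (SE 0.23, limma adjusted p 0.684). XAGE1A had 541 ± 17.3 TPM in the clone (SD, n = 3) against 505 ± 102 TPM over the WT libraries (SD, n = 4), and its log2 difference of 0.12 turned to -0.027 without WT library 2. PAGE5, PRAME and CTAG1B, the gene of NY-ESO-1, had log2 differences of -0.08, -0.31 and -0.61, and their groups overlapped. The plot of cancer-testis genes by library shows both sets.

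**Figure D2:**
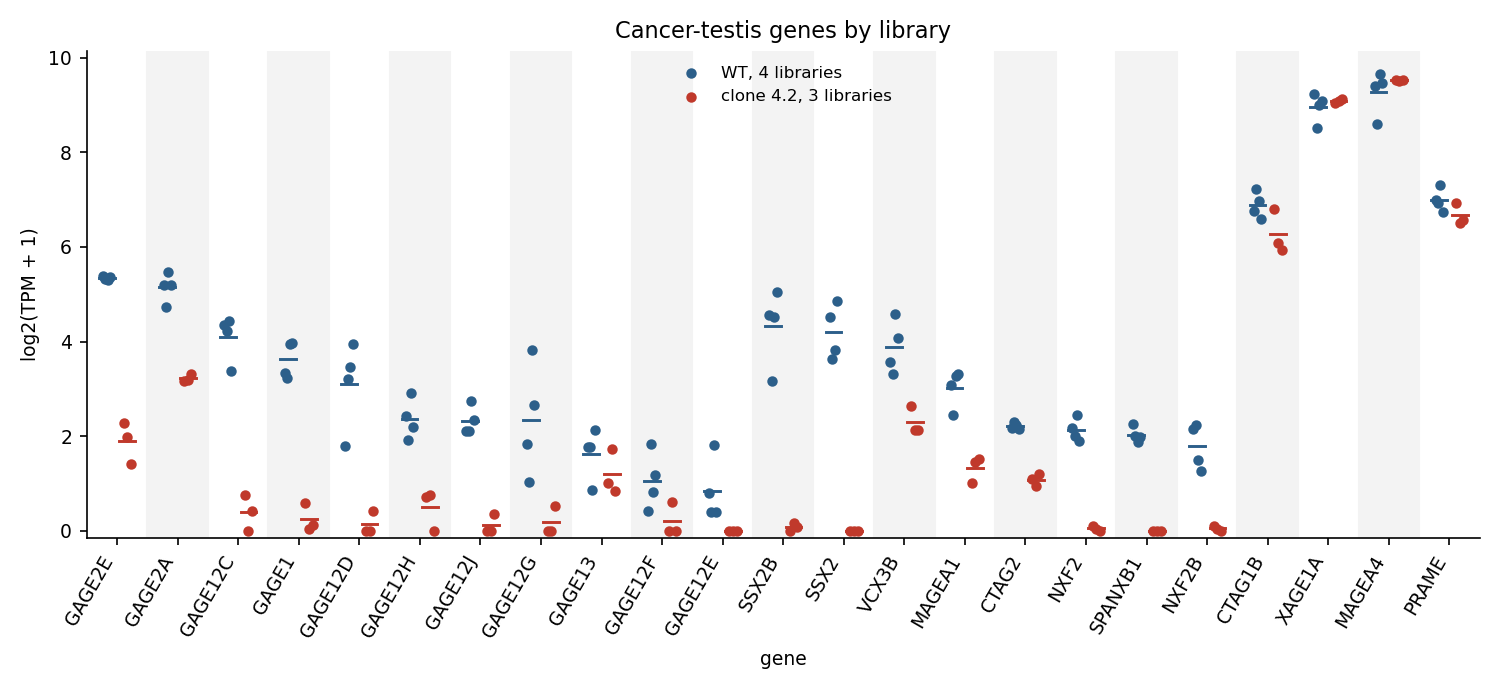
Level of 23 cancer-testis genes on the log2(TPM + 1) scale (y axis) in the 4 WT libraries (blue points) and the 3 libraries of clone 4.2 (red points), with a bar at the mean of each group. SSX2 and SPANXB1 lie at 0 in clone 4.2, GAGE2A keeps 7.96 to 9 TPM there, and XAGE1A, MAGEA4 and PRAME at the right overlap between the groups.

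A second group of falls lay next to each other on chromosome 11, in the beta-globin cluster and the olfactory receptor genes beside it. The beta-globin genes encode the beta-like chains of haemoglobin in the order of their use in development and share a distal control region. Of 9 tested genes between positions 5253190 and 5678434 (GRCh38), 5 fell. The span was set by the called genes themselves, and over all tested genes 0.365% fell. HBE1, the embryonic globin gene, was at 0.891, 0.338 and 0.476 TPM in clone 4.2 and 26.3, 43.8, 16.8 and 21.0 TPM in WT, a log2 difference of -4.08 (SE 0.38, limma adjusted p 1.004e-05). OR51B5, an olfactory receptor gene, was at 0.273, 0.598 and 0.567 TPM against 16.9, 16.5, 15.1 and 14.4 TPM, a log2 difference of -3.50 (SE 0.20). Its transcript OR51B5-202, annotated as a processed transcript and not as protein-coding, held 67.5% of that level in WT. The protein-coding OR51B5-201 had a mean of 0.0384 TPM in clone 4.2 and 0.477 TPM in WT, with no test. OR51B4 fell by 2.44, the readthrough gene AC104389.5 by 1.63 and the fetal globin gene HBG2 by 1.39. All 5 were near 0 in the clone. The other 4 tested genes of the span were not called: OR51B2, listed at 0 in the clone and at 0.267 to 0.996 TPM in WT, and TRIM6, TRIM34 and TRIM5, with log2 differences of -0.88, -0.34 and -0.53. HBB and HBD, the adult globin genes, were listed at 0 in all 7 libraries. The annotated transcripts of these genes overlap, and 76.6% of the 50-base windows of HBE1 transcripts also occur in transcripts of other genes. AC104389.4 alone holds 72.7% of the HBE1 windows, and OR51B5 comes next. Of the OR51B5 windows, 3.04% occur in other genes. The HBE1 and OR51B5 values may thus share some reads, to an extent that was not tested. The call of AC104389.5 was lost without clone 4.2 library 2 or 3 (highest adjusted p 0.0623).

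Among the other falls, ATP10A had the smallest adjusted p of all genes. ATP10A encodes a lipid flippase of the plasma membrane (ENSG00000206190, chromosome 15, 25677273 to 25865172, minus strand, GRCh38). It was listed at 0 in all 3 libraries of clone 4.2 and was at 5.46, 4.69, 5.22 and 5.91 TPM in WT, a log2 difference of -2.66 (SE 0.13, limma adjusted p 4.708e-09). Of its 19 listed transcripts, 12 were above 0 in WT and none in the clone. UBE3A, the 1 other tested gene that starts within 500 kb, had a log2 difference of 0.36 and was not called.

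GLUL, glutamine synthetase, was at 4.53, 3.34 and 3.16 TPM in clone 4.2 and 18.5, 24.1, 18.3 and 12.1 TPM in WT, a log2 difference of -2.02 (SE 0.23, limma adjusted p 9.711e-05). GLUL-207 and GLUL-211, annotated as processed transcripts and not as protein-coding, held 36.5% and 24.9% of the GLUL level in WT. The protein-coding transcripts GLUL-204 and GLUL-201 had means of 0.884 and 0 TPM in clone 4.2 and 3.38 and 0.246 TPM in WT, with no test. CD40, the receptor for CD40 ligand in the tumour necrosis factor receptor family, was at 0.585, 0.217 and 0.0770 TPM against 4.88, 7.69, 4.85 and 3.73 TPM, a log2 difference of -2.26 (SE 0.30). Both were lower in every library of the clone and were called in all 7 fits with 1 library left out. PXDN, a peroxidase that crosslinks collagen IV, fell by 2.24, and GPX7, a glutathione peroxidase of the endoplasmic reticulum, by 2.21. PXDN was the only tested gene that starts within 500 kb of its own start. The tubulin gene TUBB2B fell by 1.76, and 48.0% of its windows occur in transcripts of other genes, first of all TUBB2A. SLC1A3, a glial glutamate transporter, was the only called gene of 40 tested for amino acid transport and tRNA charging. It fell by 1.1 on the log2 scale, a call that was lost without clone 4.2 library 1 or 3 (highest adjusted p 0.0550). Among noncoding genes and pseudogenes, UBBP4, a ubiquitin pseudogene, was at 5.45, 6.19 and 3.42 TPM in clone 4.2 and 27.6, 30.3, 24.5 and 22.3 TPM in WT. LINC02184 and NCOR1P4 fell by 2.35 and 2.19 to at most 0.253 and 0.248 TPM. These 3 calls held in all 7 fits with 1 library left out. Of 450 tested zinc finger genes, ZNF676 and ZNF239 fell, by 1.17 and 1.12, and none rose. That is 0.444% of the list, close to the 0.473% called over all tested genes. TRIM51 and the X-linked gene FAM133A fell by 1.54 and 1.39.

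CSMD1, a large transmembrane protein gene with complement-control domains, was listed at 0 in clone 4.2 and at 2.20, 4.84, 2.22 and 1.89 TPM in WT. SLITRK4, a synaptic adhesion gene, had at most 0.0190 TPM in the clone and 1.21 to 1.75 TPM in WT. ROBO2, a receptor for the guidance ligand SLIT, was at 1.33, 0.0760 and 0.0960 TPM against 4.50, 7.77, 4.57 and 2.60 TPM. ROBO2 was the only called gene of 51 axon guidance genes tested, whose median log2 difference was -0.12 (0.01 without WT library 2), and its call was lost without clone 4.2 library 2 or 3 (highest adjusted p 0.126). The sialyltransferase genes ST8SIA1, which makes the melanoma ganglioside GD3, and ST8SIA5 fell by 1.24 and 1.35. The ST8SIA1 call held only without WT library 3 or 4, and that of ST8SIA5 only without clone 4.2 library 1 or WT library 2, of the 7 fits with 1 library left out, with a highest adjusted p of 0.183 in both cases. Of 42 tested clustered protocadherins, which give neurons their surface identity by choice of promoter, 2 fell and none rose. These were PCDHGB5, by 2.17, and PCDHGA2, by 1.11, of which the latter held only without clone 4.2 library 1 or WT library 4 (highest adjusted p 0.160, without clone 4.2 library 2). The 2 calls are 4.76% of the 42, against 0.473% over all tested genes. The median of the 42 was -0.34, and 35 were below 0, with a median of -0.22 without WT library 2. Over all 16692 tested genes, 7048 were below 0. Genes of the cluster share their last exons, and 55.3% of the windows of PCDHGB5 occur in other genes.

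Of the matrix genes, BGN, which encodes the small proteoglycan biglycan, was at 6.21, 1.90 and 1.66 TPM in clone 4.2 and 16.1, 55.2, 40.1 and 10.9 TPM in WT, a log2 difference of -2.78 (SE 0.53, limma adjusted p 0.0176). WT was widely spread, and the call was lost without clone 4.2 library 2 or 3 or WT library 2 or 3 (highest adjusted p 0.147). It was the only called gene of 30 tested proteoglycan and matricellular genes, whose median log2 difference was -0.30, or -0.06 without WT library 2. LOXL4, a lysyl oxidase that crosslinks collagen, was at 403, 26.9 and 35.3 TPM against 508, 1464, 402 and 135 TPM, overlapped between the groups and had an adjusted p of 0.606. ACAN, the large proteoglycan aggrecan, was at 3.44, 1.81 and 2.08 TPM against 11.5, 55.5, 13.5 and 7.80 TPM. Its log2 difference of -2.36 had an adjusted p of 0.0540 and was not called, although the groups did not overlap. WT library 2, the WT library that stood apart, held the highest level of BGN, LOXL4 and ACAN. ADAMTS1, a protease that cleaves such proteoglycans, fell by 1.66, a call that was lost without clone 4.2 library 3 or WT library 3 (highest adjusted p 0.113). TIMP3, an inhibitor of these proteases, had 785.5 ± 90.7 TPM in the clone (SD, n = 3) against 400.2 ± 132 TPM over the WT libraries (SD, n = 4), a log2 difference of 1.03 with an adjusted p of 0.233.

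The lineage genes were next. RXRG, a retinoid X receptor that marks a neural crest-like state of melanoma cells (chromosome 1, 165400917 to 165445355, minus strand, GRCh38), was at 6.59, 4.46 and 1.85 TPM in clone 4.2 and 29.9, 35.8, 50.2 and 19.4 TPM in WT. The clone lay below the lowest WT library in all 3 libraries, and the log2 difference was -2.75 (SE 0.39, limma adjusted p 0.000998). RXRG was called in all 7 fits with 1 library left out. It was the only called gene of 12 tested melanocytic genes, of a list of 25, and of 13 tested retinoid genes. The median log2 difference of the 12 melanocytic genes was -0.62, with 8 below 0, and it was -0.42 without WT library 2. GPNMB, a melanosomal glycoprotein, was at 42.5, 35.4 and 64.6 TPM against 62.5, 134.4, 63.5 and 64.4 TPM, and EDNRB, the endothelin receptor of the lineage, at 31.6, 17.3 and 8.77 TPM against 39.6, 55.1, 39.8 and 20.1 TPM. Neither was called, and in both the highest library of the clone lay inside the WT range. APOD and APOE, apolipoproteins on the same list, had log2 differences of -1.70 and -1.43 with adjusted p-values of 0.553 and 0.651.

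MITF, the master regulator of the melanocyte lineage, lay just under the limit on size. It was at 14.4, 7.23 and 12.3 TPM in clone 4.2 and 22.2, 21.5, 26.7 and 18.7 TPM in WT. The groups did not overlap, and the log2 difference was -0.96 (SE 0.19, limma adjusted p 0.0268). It met both limits with a pseudocount of 0.1 (log2 difference -1.02), with median-of-ratios scaling (-1.01), and without clone 4.2 library 1 (-1.14) or WT library 4 (-1.03). In other alternatives MITF stayed uncalled. Among these were quantile normalization, only the 2 groups fitted, and the fits without clone 4.2 library 2 or WT library 1 or 3. The transcript MITF-201 had a mean of 2.73 TPM in clone 4.2 and 9.86 TPM in WT, a share of 24.1% and 44.3% of the gene's level, with no test across transcripts.

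Of 20 tested neural crest and glial genes, 1 (5.0%) fell and none rose, against 0.473% called over all tested genes. Their median log2 difference was -0.24, or -0.18 without WT library 2. The 1 that fell was FABP7, a fatty acid binding protein of glia and melanoma cells, at 3.78, 1.80 and 2.11 TPM in clone 4.2 and 10.4, 10.4, 7.42 and 3.97 TPM in WT. The highest library of the clone lay just below the lowest WT library, and the call (log2 difference -1.31, adjusted p 0.0296) held only without clone 4.2 library 1 or WT library 4, with a highest adjusted p of 0.264 without clone 4.2 library 2. SOX8, a close relative of SOX10, was the 1 called gene of 12 tested SOX genes (8.33%, against 0.473% over all tested genes). It fell by 1.59 from 3.15 ± 1.04 TPM in WT (SD, n = 4) to 0.395 ± 0.460 TPM (SD, n = 3), and its call held in the same 2 of 7 fits, with a highest adjusted p of 0.297. ERBB3, a receptor whose gene SOX10 binds, was at 319, 160 and 163 TPM against 272, 339, 204 and 203 TPM and was not called. Clone 4.2 library 1 lay inside the WT range, and libraries 2 and 3 lay below all WT libraries. SNAI2, a transcription factor of migrating neural crest, had a log2 difference of -1.1 and an adjusted p of 0.127. FOXD3, a transcription factor that maintains neural crest, was at 6.61, 7.75 and 5.44 TPM against 11.8, 23.5, 10.8 and 11.6 TPM, and TFAP2B, of the AP-2 family, at 114, 67.6 and 35.1 TPM against 143, 188, 166 and 84.6 TPM. Their log2 differences of -0.96 and -1.09 had adjusted p-values of 0.536 and 0.621. L1CAM, a neural adhesion molecule, was the member with the largest difference above 0, at 25, 38.2 and 52 TPM against 19.9, 12.2, 10.5 and 25.3 TPM, with an adjusted p of 0.188.

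Of the MHC class II genes, whose products present peptides to helper T cells and which many melanomas express, 13 were tested, 1 fell and none rose. The 1 gene was HLA-DQA1, or 7.69% of those tested, against 0.473% called over all tested genes. HLA-DQA1 was at 14, 12.2 and 7.84 TPM in clone 4.2 and 36.3, 46.0, 46.7 and 34.7 TPM in WT, a log2 difference of -1.79 (SE 0.31, limma adjusted p 0.00737). Its close copy HLA-DQA2, outside the list, fell by 1.57, and HLA-DQB1, the tested gene between them, was at 72.3, 47.4 and 48.4 TPM against 68.7 to 74.9 TPM and was not called. Both calls were lost without clone 4.2 library 3, with adjusted p-values of 0.0799 and 0.0946. The median log2 difference of the 13 genes was -0.42, and 12 were below 0 (13 with a median of -0.39 without WT library 2). Of the 13 genes, 8 had all 3 libraries of the clone below all 4 of WT, against 3.03% of all tested genes. HLA-DRA was at 323, 310 and 271 TPM against 426, 367, 565 and 423 TPM, and CD74, the invariant chain, at 2045, 1851 and 1593 TPM against 2354, 2216, 2179 and 2313 TPM. Their log2 differences were -0.55 and -0.31 with adjusted p-values of 0.538 and 0.658. HLA-DOA, which tempers peptide loading, was at 2.48, 1.58 and 2.61 TPM against 7.69, 8.51, 5.05 and 5.99 TPM, with an adjusted p of 0.255. Summed over the list, class II genes took 3189, 2928 and 2594 TPM in clone 4.2 and 3544 to 3890 TPM in WT.

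The 18 genes that rose belong to no common family, and 16 of them had a mean level under 10 TPM in WT. The largest rise was in MIR4527HG, a long noncoding host gene of a microRNA (ENSG00000267761, chromosome 18, 47285725 to 47594550, plus strand, GRCh38). It was at 19.4, 16.5 and 20.5 TPM in clone 4.2 and 0.834, 2.71, 1.43 and 0.574 TPM in WT, a log2 difference of 3.13 (SE 0.24, limma adjusted p 1.229e-06). The pseudogene TPMTP1, whose start lies 344 kb further on, rose by 1.66, from 0.161 to 0.385 TPM in WT to 1.53 to 4.14 TPM. The 5 other tested genes that start within 500 kb were not called.

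LRFN5, a synaptic adhesion gene on chromosome 14 whose promoter is shown above, was at 16.2, 6.74 and 9.62 TPM in clone 4.2 and 0.811, 1.03, 0.616 and 0.297 TPM in WT, a log2 difference of 2.75 (SE 0.25, limma adjusted p 7.929e-06). Its transcript LRFN5-202, annotated as a processed transcript, was at 7.08, 0 and 6.31 TPM in the clone and was listed at 0 in WT. The protein-coding LRFN5-201 was at 9.12, 6.74 and 3.31 TPM against 0.811, 0.361, 0.598 and 0.297 TPM. PCDH15, a protocadherin of the inner ear, was at 8.81, 10.6 and 7.55 TPM against 0.679, 0.71, 1.08 and 1.14 TPM, a log2 difference of 2.39 (SE 0.25). Both genes were higher in every library of the clone and were called in all 7 fits with 1 library left out. RTL1, an imprinted gene derived from a retrotransposon and active in placenta, rose by 1.51 to 2.35, 4.29 and 2.38 TPM. CCBE1, a secreted factor of lymphatic growth, rose by 1.63 and PPP4R3C, an X-linked phosphatase subunit gene, by 1.12.

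**Figure D3:**
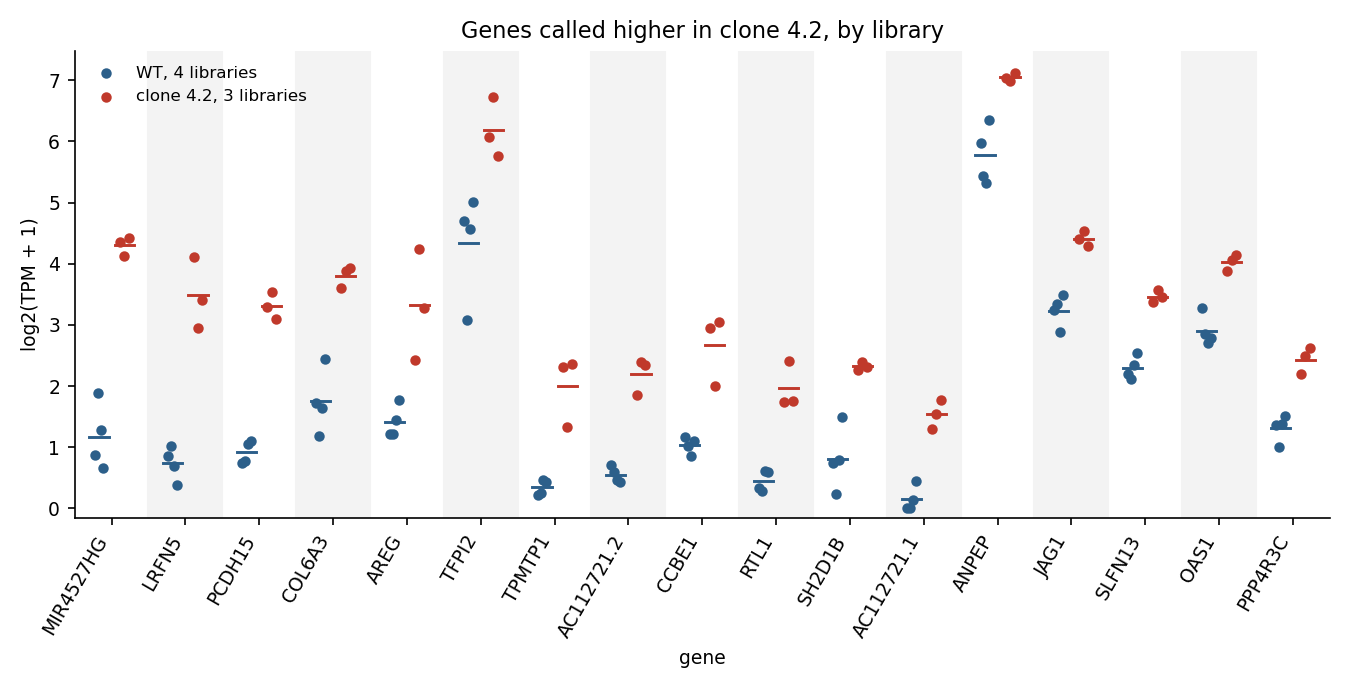
Level of 17 of the 18 genes called higher in clone 4.2 on the log2(TPM + 1) scale (y axis), in the 4 WT libraries (blue points) and the 3 libraries of clone 4.2 (red points), with a bar at the mean of each group. The groups overlap for none of these genes, MIR4527HG at the left has the largest difference, and ANPEP and TFPI2 have the highest levels.

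COL6A3, which encodes a chain of the microfibril collagen VI, was at 11.2, 13.7 and 14.2 TPM in clone 4.2 and 2.30, 1.28, 2.12 and 4.43 TPM in WT, a log2 difference of 2.06 (SE 0.40, limma adjusted p 0.0193). The noncoding genes AC112721.1 and AC112721.2, whose starts lie 10.9 and 20.4 kb from that of COL6A3 on chromosome 2, rose by 1.39 and 1.65. All 3 tested genes of this span thus rose, while the next ones, MLPH and COPS8, were not called. Of 7 fits with 1 library left out, the COL6A3 call held only without WT library 4 (highest adjusted p 0.122, without clone 4.2 library 2), and those of both noncoding genes in all 7. COL6A3 was the only called gene of 24 tested collagen chains. COL6A1 and COL6A2, the other chains of the same fibril, had log2 differences of -0.39 and -1.0 with adjusted p-values of 0.660 and 0.638.

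Secreted and surface proteins followed. AREG, amphiregulin, a ligand of the EGF receptor, was at 4.40, 17.9 and 8.69 TPM in clone 4.2 and 1.33, 1.31, 1.72 and 2.41 TPM in WT. TFPI2, a matrix serine protease inhibitor, was at 66.6, 105 and 53.3 TPM against 25.1, 7.43, 22.7 and 31.4 TPM. ANPEP, the aminopeptidase CD13, was at 130, 126 and 139 TPM against 62.1, 42.4, 39.1 and 80.8 TPM. The groups did not overlap in any of these 3 genes, but the calls were fragile. With log2 differences of 1.91, 1.85 and 1.27 and adjusted p-values of 0.0201, 0.0404 and 0.0333, they held only without WT library 4 and, for AREG, without clone 4.2 library 1, and the highest adjusted p-values of the 7 fits were 0.185, 0.337 and 0.175. Leaving out clone 4.2 library 2 gave the highest value for AREG and TFPI2, and leaving out library 3 that for ANPEP. JAG1, a ligand of Notch receptors, was at 20.2, 22.3 and 18.5 TPM against 8.45, 9.14, 6.35 and 10.2 TPM, a log2 difference of 1.18 (SE 0.17, limma adjusted p 0.00107) that held in all 7 fits. It was the only called gene of 13 tested Notch pathway genes. The receptor NOTCH2 had a log2 difference of 0.53 and an adjusted p of 0.497, and the target genes HES1 and HEY2 had 0.36 and -0.87.

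OAS1, an interferon-induced enzyme that senses double-stranded RNA, was at 13.8, 15.6 and 16.7 TPM in clone 4.2 and 8.67, 6.24, 5.54 and 5.93 TPM in WT, a log2 difference of 1.12 (SE 0.16, limma adjusted p 0.0011). Every library of the clone lay above every WT library, and the call held in all 7 fits. It was the only called gene of 38 tested interferon-stimulated genes, of which 23 were below 0, with a median log2 difference of -0.16. IFITM1, another of them, was at 11.2, 1.75 and 1.3 TPM against 23.3, 59.7, 16.4 and 6.27 TPM, with an adjusted p of 0.343. IFITM3, the most abundant of the list, was at 968, 571 and 493 TPM against 1121, 1535, 1105 and 745 TPM, with an adjusted p of 0.537. In both genes clone 4.2 library 1 lay inside the WT range and WT library 2 was highest. SLFN13, a tRNA-cleaving Schlafen gene, rose by 1.16, and SH2D1B, a signalling adaptor of natural killer cells, by 1.51. Both calls were lost without clone 4.2 library 2 or 3, with highest adjusted p-values of 0.0891 and 0.0878.

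Several lists had no called gene but lay to one side of 0. Of 12 tested S100 genes, which encode small calcium-binding proteins, 9 were above 0, and the median log2 difference was 0.46, or 0.23 without WT library 2. S100A4, linked to cell motility, was at 1184, 717 and 529 TPM in clone 4.2 and 392.2, 177, 218 and 212 TPM in WT. S100A3 was at 60.3, 53.5 and 59.4 TPM against 22.8, 6.63, 21.1 and 16 TPM. S100A16 was at 378, 348 and 247 TPM against 168, 177, 175 and 150 TPM. In these 3 genes each library of the clone was above each WT library. Their log2 differences were 1.68, 1.86 and 0.93 with adjusted p-values of 0.0942, 0.101 and 0.0465, so S100A16 met the limit on p but not that on size. It met both without clone 4.2 library 3 (log2 difference 1.11). In other alternatives S100A16 stayed uncalled, among them the fits without clone 4.2 library 2 or WT library 1 or 3. S100A2 had the largest difference of the list, 2.25, but its groups overlapped, at 39.8, 126 and 109 TPM against 20.1, 4.48, 13.9 and 53.2 TPM, and the adjusted p was 0.370. S100A6, the most abundant member, had a log2 difference of 0.25 and overlapped as well.

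The lists of growth and metabolism moved with WT library 2. All 30 S-phase genes were above 0, with a median log2 difference of 0.70, and none was called or had an unadjusted p under 0.05. Without WT library 2 the median was 0.30, and all 30 remained above 0. RRM2, a subunit of ribonucleotide reductase, was at 258, 717 and 558 TPM in clone 4.2 and 310, 57.2, 201 and 577 TPM in WT. All 32 G2/M genes were above 0 with a median of 0.44, which became -0.01 without WT library 2, with 15 of 32 above 0. Summed G2/M levels were 2268, 3638 and 3620 TPM in clone 4.2 and 2655, 849.5, 3136 and 3559 TPM in WT, so WT library 2 alone lay outside the range of the clone. MKI67, the proliferation marker Ki-67, was at 75.3, 85 and 112 TPM against 62.7, 23.2, 43.7 and 113 TPM. Of 85 ribosomal protein genes, 80 were below 0, with a median of -0.25 and of -0.14 without WT library 2. Of 32 hypoxia and glycolysis genes, 28 were below 0, with a median of -0.49 and of -0.26 without that library. GAPDH, a glycolytic enzyme, was at 10475, 9558 and 9165 TPM against 11812, 22045, 8866 and 9935 TPM, and CA9, a hypoxia-induced carbonic anhydrase, at 23.6, 15.3 and 0.539 TPM against 82.4, 482, 4.04 and 1.88 TPM. WT library 2 was the highest in both and the lowest in RRM2 and MKI67. None of these genes was called. The part of the state of WT library 2 in these medians was not tested beyond leaving it out.

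**Figure D4:**
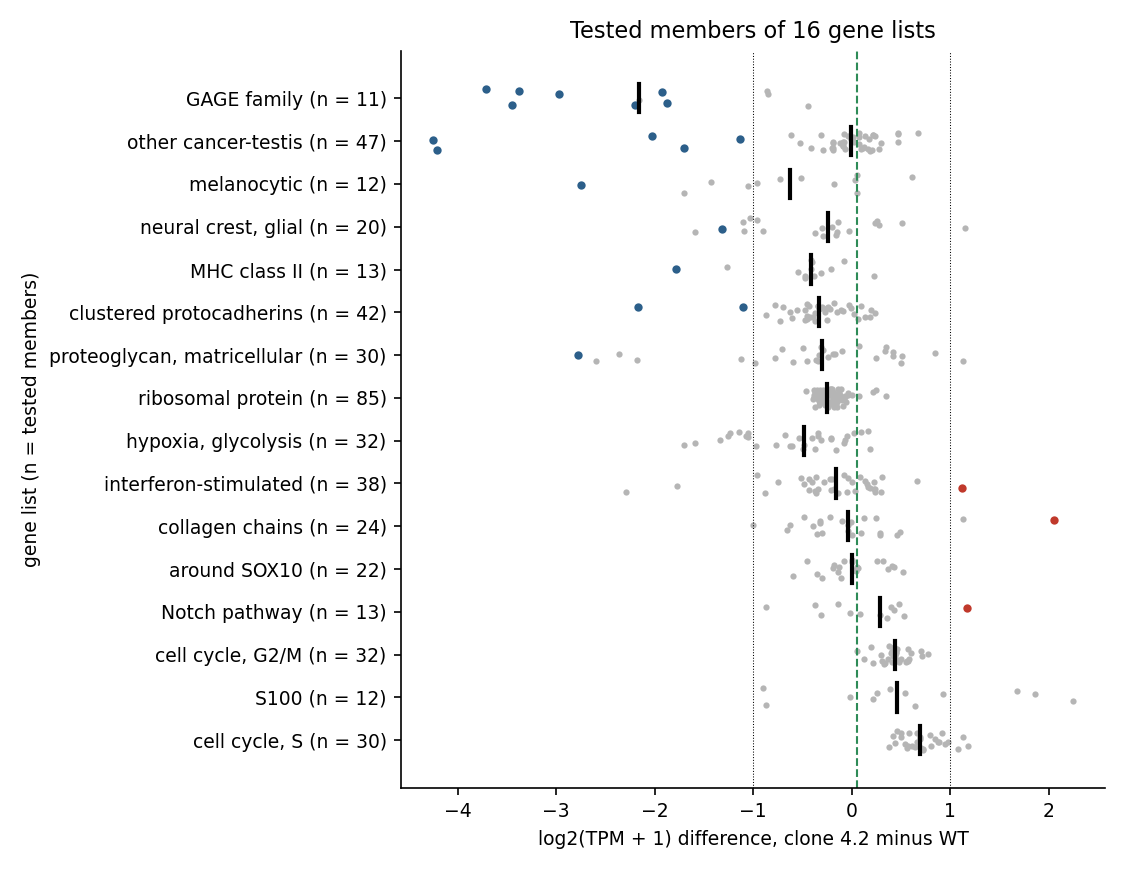
Log2(TPM + 1) difference between clone 4.2 and WT (x axis) of the tested members of 16 gene lists (y axis), with grey points for genes that were not called, red and blue points for genes called higher and lower, a black bar at each list's median, dotted lines at a difference of 1 in size and a dashed green line at the median of all tested genes, 0.06. The GAGE median lies at -2.16, and the S-phase and G2/M medians lie at 0.70 and 0.44.

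Clone 4.1 carries the same labelled deletion, and clone 4.2 was compared with clone 4.1 directly in the same fit. The difference is between the levels of the 2 clones, while its spread is estimated over all 18 A375 libraries, WT included. With only the 2 clones fitted, 197 genes were called. Over all 18 libraries it called 373 of the 16692 tested genes, or 2.23%, of which 159 (0.953%) were higher in clone 4.2 and 214 (1.28%) were lower. After median-of-ratios scaling, 125 were higher and 244 lower. Each of the 7 libraries moved the count by more than 1.5 times when it was left out, from 129 without clone 4.2 library 3 to 699 without clone 4.2 library 1. Of 11 tested GAGE genes, 1 was called lower in clone 4.2, GAGE12H, and their median log2 difference was -0.41, against 0.07 over all tested genes. GAGE12C had a mean of 0.339 TPM in clone 4.2 and 0.570 TPM in clone 4.1, with a log2 difference of -0.04 (adjusted p 0.953). ATP10A was at a mean of 0.0225 TPM in clone 4.1, and SPANXB1 was listed at 0 in both clones.

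Both contrasts use the same 3 libraries of clone 4.2, so the values against clone 4.1 are no independent support for genes chosen as low or high in these libraries. SSX2 had a mean of 12.6 TPM in clone 4.1 and was lower in clone 4.2 by 3.70 on the log2 scale (limma adjusted p 5.752e-06), and RXRG had 40.5 TPM there and was lower by 3.08. MAGEA1 had 23.2 TPM, GPX7 9.28 TPM, CD40 4.68 TPM and GLUL 11.3 TPM in clone 4.1, and all 4 were called lower in clone 4.2. HBE1 and OR51B5 had 7.41 and 2.73 TPM in clone 4.1, and both were called lower in clone 4.2. Of the rises, MIR4527HG, LRFN5, PCDH15, RTL1, CCBE1 and COL6A3 were called higher in clone 4.2 than in clone 4.1, with log2 differences of 4.08, 3.46, 2.93, 1.90, 1.94 and 1.91. JAG1 had 16.3 TPM in clone 4.1, ANPEP 78.3 TPM, TFPI2 55.2 TPM and OAS1 8.58 TPM, and none of these 4 was called between the clones.

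Set side by side with the clones of the other region, these genes followed more than 1 order. The values of each clone against WT rest on the same 4 WT libraries, so levels are given instead. ATP10A had a mean of 5.32 TPM in WT, 0.199 TPM in clone 1.1 and 17.2 TPM in clone 1.2. GAGE12C had 16.8, 0.260 and 122 TPM, and TMPRSS15, the gene of the intestinal protease enteropeptidase, which fell by 1.28 in clone 4.2, had 1.74, 0.0663 and 102 TPM. In these 3 genes clones 4.2, 4.1 and 1.1 were near 0, and clone 1.2 was above WT. Other falls shared this order. GAGE1 had 11.7 TPM in WT, 0.456 TPM in clone 1.1 and 74.5 TPM in clone 1.2. UBBP4 had 26.2 TPM in WT, 5.02, 2.81 and 4.32 TPM in clones 4.2, 4.1 and 1.1, and 243.5 TPM in clone 1.2. SSX2 was near its WT level in clones 1.1 and 1.2, with 18.9 and 19.9 TPM, and lacked signal in clone 4.2 alone. RXRG was also low in clones 1.1 and 1.2, with 2.32 and 0.825 TPM. PCDH15 had 39.1 TPM in clone 1.1, above clone 4.2, and 0.370 TPM in clone 1.2, and LRFN5 had at most 0.803 TPM as a mean in any clone but 4.2.

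**Figure D5:**
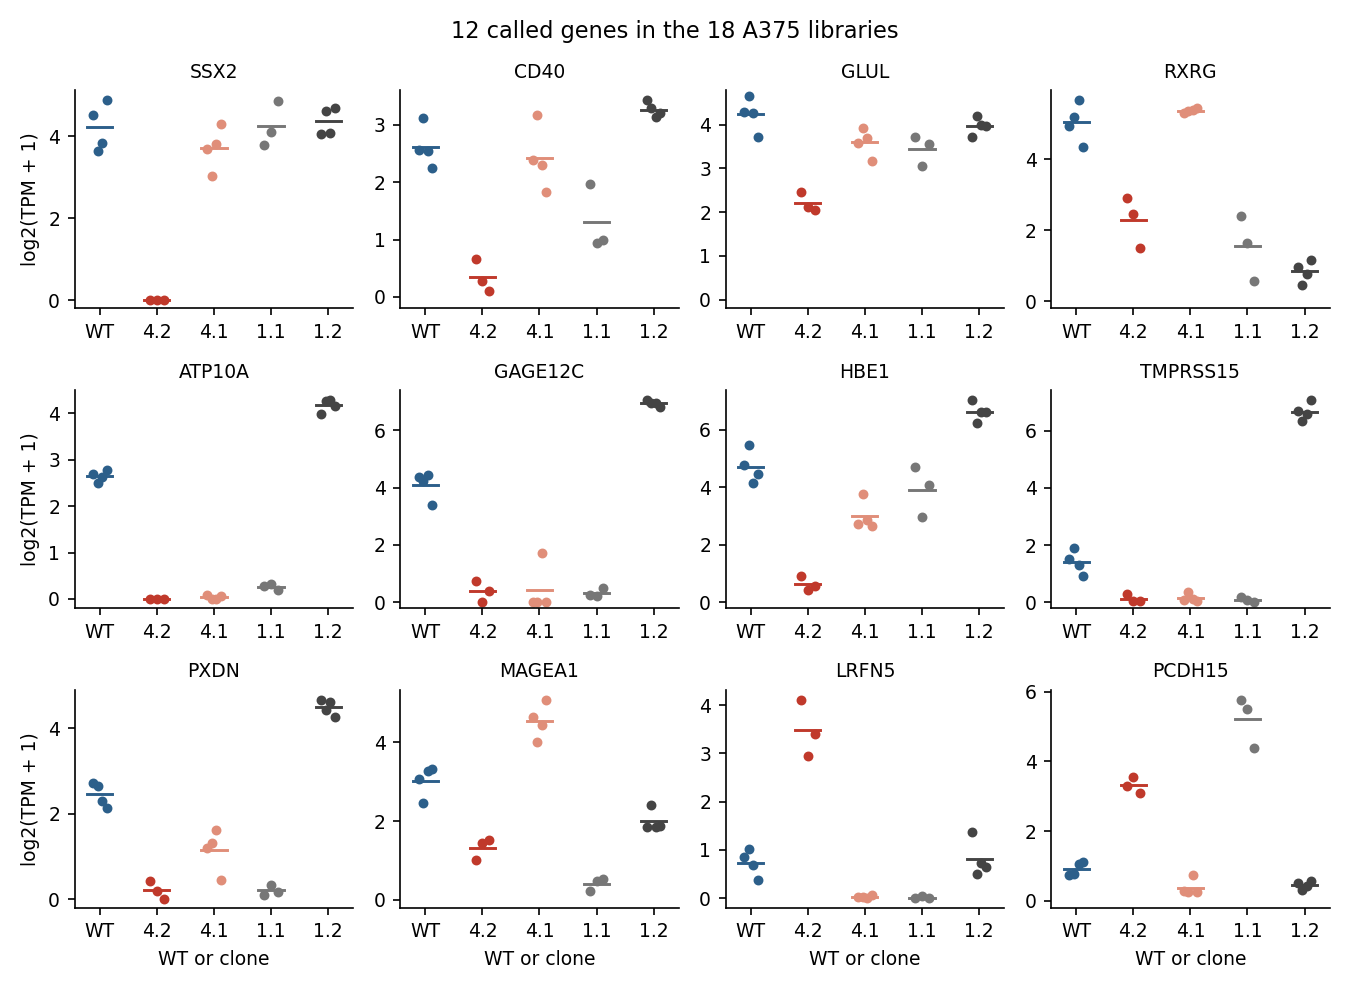
Level of 12 called genes on the log2(TPM + 1) scale (y axis of each panel) in the 18 A375 libraries, grouped as WT and clones 4.2, 4.1, 1.1 and 1.2 (x axis), with 1 point per library and a bar at the group mean. SSX2 lies at 0 in clone 4.2 only, ATP10A and GAGE12C lie near 0 in clones 4.2, 4.1 and 1.1 and highest in clone 1.2, and LRFN5 is high in clone 4.2 only.

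By position, no chromosome was shifted as a whole. The median log2 difference of the tested genes of a chromosome lay between 0.02 on chromosome 21 and 0.10 on chromosome 20, and it was 0.04 on chromosome 22, which holds SOX10 and had no called gene. Of the 79 called genes, 32 lay in 11 runs in which neighbouring called genes were less than 1000000 bases apart. Besides the GAGE genes, the SSX2 pair, the NXF2 pair, the globin span and the COL6A3 span, these included HLA-DQA1 and HLA-DQA2 on chromosome 6, and ST8SIA5, MIR4527HG and TPMTP1 on chromosome 18, of which the first fell and the others rose.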

How the data were processed

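RNA of A375 cells was captured by polyadenylation, fragmented and copied with random hexamers, per the labels' protocols. The submitters' processing notes name DRAGEN and the build GRCh38. The authors deposited TPM per gene and per transcript without read counts. Depth is unknown, and the number of libraries limits the precision. Identical repeated lines were used once, which left 60671 gene identifiers, and 6 columns that match no sample of the series were not used. Positions and transcripts are from GENCODE 29 and promoters from RefSeq.

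Genes entered the fit if 3 or more of the 18 A375 libraries held them at a TPM of 1 or above. Log2(TPM + 1) was fitted with limma 3.58.1 (R 4.3.3), 1 coefficient per group over 5 groups, with a variance trend, two-sided tests and Benjamini-Hochberg adjustment over all 16692 tested genes. Differences and folds are on the log2(TPM + 1) scale, which understates changes of low genes. The fit was tested on simulated data with known changes, placed only in genes above a set mean level. That test does not cover the low levels of many called genes. The genes named are SOX10 and genes of its surroundings, every gene that rose, the 25 largest falls, the 10 smallest adjusted p-values, called members of the lists, and among the described lists up to 4 of the most abundant and 3 of the most different members. Other genes, among them S100A16, FOXD3, SNAI2, TIMP3, CTAG1B, TMPRSS15, NXF2B, VCX3B, HLA-DQA2 and the neighbours of called genes, were named after their values were seen. Some results are not reported here. Lists and members were chosen with earlier results of these data known. Alternatives are given at the end.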

Additional observations from a re-analysis of the deposited data

Results flagged for a closer look

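Among 120 named genes, 7 had 1 WT library far from the other 3, by the gap of its log2(TPM + 1) value over the range of the 4; chance alone flags about 1 in 20 groups. WT library 2 was the far library for 5 of them: it was highest for CSMD1 (4.84 TPM), FOXD3 (23.5 TPM), PURPL (4.52 TPM) and TRIM5 (13.6 TPM) and lowest for TOP2A (51.3 TPM). LINC02780 was lowest in WT library 1 (0.857 TPM), and TRIM51 was highest in WT library 3 (5.56 TPM). CSMD1, PURPL, LINC02780 and TRIM51 are among the 61 genes that fell. Of 7 fits that left out 1 library, the call of PURPL held only without WT library 4, with a highest adjusted p (limma) of 0.297 without clone 4.2 library 2.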

How the results depend on the processing

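The count of 79 genes in clone 4.2 against WT became 31 with a mean TPM of at least 5, 36 with only the 2 groups fitted, and 28 with only libraries of low mitochondrial share (under 2.5% of TPM), and it was 53 to 92 with 1 library left out. It was 107 with a pseudocount of 0.1, 65 with no filter, 78 with median-of-ratios scaling and 80 with quantile normalization. The count of 373 genes against clone 4.1 became 200, 197 and 48 in the first 3 settings, 219 with no filter and 659 with no minimum difference, and was 129 to 699 with 1 library left out. With the replicate number as a replicate block and only the 2 groups fitted, 4 genes were called against WT and 0 against clone 4.1 by limma, where 4229 had an unadjusted p under 0.05. That block fit left out WT library 4 and clone 4.1 library 4, whose number no library of clone 4.2 bears. The labels do not say that the numbers pair the libraries. Deviations of same-numbered libraries from their group means correlated at -0.01, -0.43 and -0.03 against WT and at 0.02, -0.35 and -0.09 against clone 4.1, across genes. So few correlations cannot settle whether the numbers mark a shared culture or day. TOP2A and XAGE1A, not called, turned to -0.17 and -0.027 without WT library 2 and otherwise reached up to 0.37 and 0.22 with 1 library left out. No called gene changed direction in any alternative run. Of their values, 1055 stayed on the same side of the limits and 323 lost the call, 75 of them with the replicate block and 53 with only libraries of low mitochondrial share. The 1055 include 79 values from the setting with no minimum difference, in which a called gene cannot lose its call. Of the values of genes not called, 13 passed the limits, such as those of ACAN and GAGE12G with a pseudocount of 0.1. Medians of lists without 1 library and under other scalings were added after the data were seen. TPM without counts give no detection limit for genes listed at 0.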
